A study of Mus musculus with 18 samples.

Results

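The genes described here are 42 mouse genes of mitosis and chromosome segregation, measured in bone marrow-derived macrophages that lacked or carried 1 working copy of the transcription factor Irf4 and were treated with interleukin-4 (IL-4). They were listed by their function in mitosis, in a rule that names genes and holds no measured value, although earlier results of these data were known when the list was made. All 42 were found on the array, of 21307 named genes, 38 by the listed symbol (Cdk1 as Cdc2a) and 4 under an older symbol through its RefSeq accession (Ndc80 as Kntc2, Nuf2 as Cdca1, Spc24 as Spbc24 and Spc25 as Spbc25). Where a gene had several probes, the probe with the highest mean signal was kept. Each of the 42 was well above background on all 18 arrays, so that none entered through a filter on 1 group, and all were among the 15496 genes tested.

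Arrays labelled Irf4-/- came from C57BL6/J mice without Irf4, and arrays labelled Irf4+/- from heterozygous littermates, so that no group carried both copies. Marrow of several mice aged 8 to 12 weeks, 2 males and 1 female per sample in the labels, was pooled and grown with human CSF1, and on day 7 the cells either stayed without IL-4 for 18 h (mock) or received 10 ng/ml of IL-4, 4 h or 18 h before harvest. A mock at 4 h was not analysed here, so both times are set against the same mock. The 6 groups had 3 arrays each, from independent experiments A, B and C that each used littermates.

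Of 43379 spots that were not controls, 63.4% to 74.4% per array were well above background. The number of arrays, not a read depth, limits the precision. Irf4 itself did not check the genotype labels, since no source used here places its probe relative to the deletion. Its log2 level was higher on the Irf4-/- arrays by 0.33 with mock, 0.05 at 4 h and 0.26 at 18 h (SE 0.39, limma adjusted p of 0.9996 or above in each), and the groups are called by their labels throughout. All 10 listed macrophage marker symbols, Lyz2 counted also under its older name Lyzs, were well above background on all 18 arrays. Their defining receptor Csf1r had log2 levels between 5.71 and 6.69.

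Mitosis is driven by the kinase CDK1 with cyclin partners, which are destroyed when the anaphase-promoting complex is switched on. Until chromosomes are attached the spindle checkpoint holds that complex back, while kinetochores tie chromosomes to microtubules and the chromosomal passenger complex corrects faulty attachments. Most of the genes are transcribed in G2 and M phase, when B-MYB, FOXM1 and the MuvB complex act at promoters that often hold a CHR element (cell cycle genes homology region) beside CCAAT boxes bound by NF-Y. Cultured macrophages divide in response to CSF1. In bulk RNA, fewer cycling cells and less of these RNAs per cell cannot be told apart. RefSeq promoter windows of 300 bases on the mouse build GRCm38.p6 were held for 34 of the 42 genes (36 windows). The other 8 are Ccna2, Cdc25c, Foxm1, Tpx2, Spc24, Incenp, Aurkb and Kif20a. A CHR (TTTGAA or TTCGAA, on either strand) lay in 77.8% of these windows, against 19.2% of all 32851 windows of the table. CCAAT (either strand) lay in 77.8% against 37.4%, and both motifs in 69.4% against 7.52%. A CCAAT match can share its edge bases with a CHR match. The promoters of Plk1 and Cdk1, whose levels followed the common pattern described next, and of Pttg1, whose level followed it least, are shown 5′ to 3′ on the strand of the gene, with CHR and CCAAT matches of either strand in capitals.
Plk1, chr7:122159185-122159484, plus strand: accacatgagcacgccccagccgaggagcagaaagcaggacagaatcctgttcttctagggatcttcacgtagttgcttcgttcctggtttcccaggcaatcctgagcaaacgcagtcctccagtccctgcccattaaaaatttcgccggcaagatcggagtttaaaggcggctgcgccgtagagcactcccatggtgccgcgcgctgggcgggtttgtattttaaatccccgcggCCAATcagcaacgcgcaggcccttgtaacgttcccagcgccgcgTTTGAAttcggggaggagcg
Cdk1, chr10:69352863-69353162, minus strand: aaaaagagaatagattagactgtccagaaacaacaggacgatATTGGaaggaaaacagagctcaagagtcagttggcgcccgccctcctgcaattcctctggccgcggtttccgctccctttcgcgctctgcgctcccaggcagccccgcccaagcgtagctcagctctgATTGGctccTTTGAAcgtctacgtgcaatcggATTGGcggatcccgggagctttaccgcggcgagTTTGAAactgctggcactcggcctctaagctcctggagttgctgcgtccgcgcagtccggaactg
Pttg1, chr11:43425932-43426231, minus strand: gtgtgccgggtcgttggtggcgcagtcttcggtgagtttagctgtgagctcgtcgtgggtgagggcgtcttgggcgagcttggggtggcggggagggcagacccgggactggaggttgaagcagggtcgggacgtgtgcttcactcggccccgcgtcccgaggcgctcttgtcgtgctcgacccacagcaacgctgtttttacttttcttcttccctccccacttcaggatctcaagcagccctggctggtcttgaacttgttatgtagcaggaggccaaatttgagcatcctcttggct
The Plk1 window held 1 CHR and 1 CCAAT, the Cdk1 window 2 and 3, and the Pttg1 window 0 of each, which says only that these letters are not in that window. Of the 34 genes, 5 had neither motif in any window, and the other 4 of them, Birc5, Mad2l1, Nuf2 and Nusap1, followed the common pattern closely (correlations of 0.968, 0.978, 0.985 and 0.99 with the mean of the 42, as described next). A match is a description of the sequence, not a measured binding site.

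The level of these genes differed more between experiments than between genotypes or IL-4 conditions. Values are log2 signal minus the log2 75th percentile of the array, so 1 unit is a doubling relative to the rest of the array, and levels of different probes are not compared. The median level of the 42 genes was between 2.35 and 2.61 on the 6 arrays of experiment A, between 0.94 and 1.50 in experiment B and between 1.01 and 1.92 in experiment C. Every A array thus stood above every B and C array, while the median over all tested genes differed little (-0.21 to -0.18 in A, -0.24 to -0.22 in B and -0.24 to -0.21 in C). Of the 42 genes, 31 had all 6 A arrays above the other 12, against 10.7% of all genes. The A level exceeded the mean of B and C by a median of 0.98 (range 0.03 to 1.50), against 0.19 over all genes. The 42 values of an array share that array and its cells and are not independent of each other.

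Differences between experiments took a median of 77.1% of each gene's sum of squares over the 18 arrays, and the 6 groups took 11.5%. Over all genes the medians were 42.5% and 29.5%. The experiment outweighed the groups in 37 of the 42 genes, against 8950 of the 15441 genes measured on all arrays. The 5 exceptions were Pttg1 (11.9% experiment, 65.3% groups), Espl1 (33.6% and 51.6%), Incenp (22.2% and 34.3%), Cenpe (30.3% and 45.3%) and Ndc80 (41.4% and 45.7%). At the other end, Ube2c, the E2 enzyme of the anaphase-promoting complex, had 88.7% between experiments and 5.11% between groups. With group means removed, each gene was correlated over the 18 arrays with the mean of the 42, in which it takes part. The correlation had a median of 0.97, was highest for Plk1 (0.995) and lowest for Pttg1 (-0.05), and is given as a description, since the arrays share experiments. Among genes outside the 42, the 5 most alike were Pmf1 (0.994), Ska1 (0.993), Ncapd2 (0.993), Rrm1 (0.991) and Melk (0.991).

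**Figure D1:**
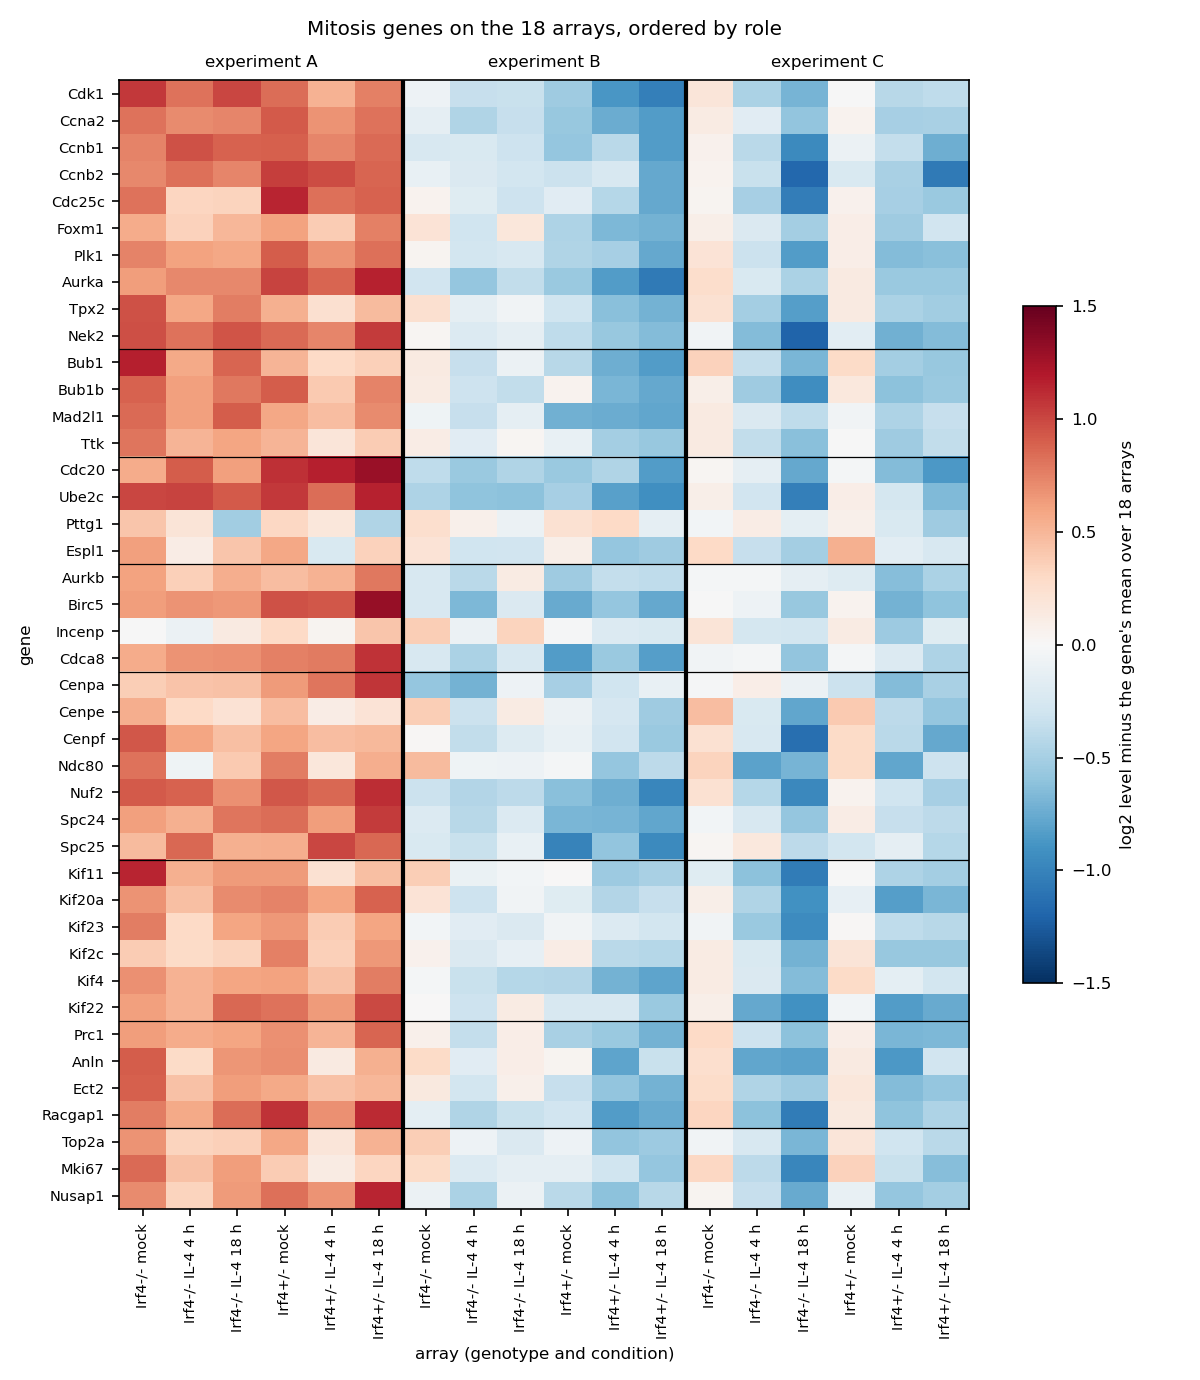
Log2 level of the 42 genes (rows, grouped by role) on the 18 arrays (columns, by experiment, with Irf4-/- left of Irf4+/-), each gene centred on its own mean. The 6 columns of experiment A are high for nearly all genes, and Pttg1 and Incenp show this least.

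**Figure D2:**
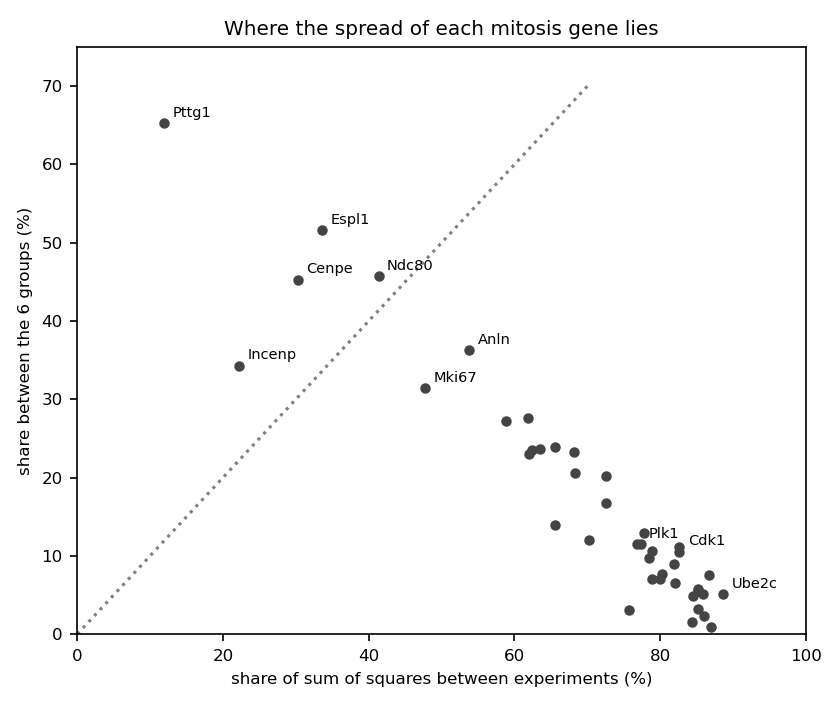
Share of each gene's sum of squares that lay between experiments (horizontal axis, %) and between the 6 groups (vertical axis, %), 1 point per gene. The dotted line marks equal shares, with 5 of the 42 genes above it, Pttg1 farthest.

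Of the summed marker lists, only that of the myeloid progenitors set all A arrays apart from the B and C arrays. The summed log2 level of the tested myeloid progenitor markers (8 genes, from 11 listed symbols) ran from 2.45 to 3.44 on the A arrays, from -0.06 to 0.56 in B and from 0.13 to 0.51 in C, and 6 of the 8 had all A arrays above the other 12. Mpo, the myeloperoxidase of granulocyte precursors, had a mean log2 level of 1.34 in A, -1.19 in B and -1.95 in C, and the stem and progenitor antigen Cd34 stood at 1.64, -1.12 and -0.58. Kit, from the same list, went the other way, with means of -5.20 in A, -4.49 in B and -4.51 in C. Elane, neutrophil elastase, was well above background on all 6 A arrays and on none in B or C. The summed level of 7 neutrophil markers was 4.42 to 5.76 in A, 4.08 to 4.59 in B and 4.00 to 4.57 in C. Within A it was 5.76, 5.75 and 5.67 on the Irf4-/- arrays (mock, 4 h and 18 h) and 4.42, 4.79 and 4.60 on the Irf4+/- arrays, which lay nearer to B and C. Summed macrophage markers (8 tested) were 8.62 to 9.30 in A, 9.31 to 9.56 in B and 9.05 to 9.74 in C. Summed dendritic cell markers were 6.13 to 7.23 in A, 7.35 to 7.65 in B and 6.93 to 7.08 in C. That sum rests mostly on Bst2, with means of 6.54, 7.34 and 6.85. Gene by gene, the 7 tested dendritic cell markers went both ways, and A exceeded the mean of B and C by a median of 0.13 (range -0.56 to 1.80). The sums of B-lineage, T and NK, erythroid and fibroblast markers overlapped between A and at least 1 other experiment. An excess in A was still not particular to the progenitor list, where its gene-by-gene median was 2.41. That median was 0.96 for neutrophil, 0.85 for T and NK, 0.88 for erythroid, 0.91 for fibroblast and 0.02 for B-lineage markers, against 0.19 over all genes. The 8 macrophage markers were all lower in A (median -0.32, range -2.00 to -0.09). The part of these markers in the levels of the mitosis genes was not tested. Within A alone, the progenitor sum was 3.13, 3.44 and 3.29 on the Irf4-/- arrays and 2.45, 2.95 and 2.63 on the Irf4+/- arrays (mock, 4 h and 18 h), while the median of the 42 genes was 2.61, 2.35 and 2.44 against 2.44, 2.41 and 2.53.

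Mitotic entry rests on CDK1, its cyclins and the kinases around them. Cdk1 had log2 levels of 2.80, 1.67 and 1.93 with mock, 2.57, 1.41 and 1.28 after 4 h of IL-4 and 2.75, 1.41 and 1.05 after 18 h on the Irf4-/- arrays of experiments A, B and C. Cdk1 levels on the Irf4+/- arrays were 2.59, 1.21 and 1.74 with mock, 2.27, 0.87 and 1.33 after 4 h of IL-4 and 2.51, 0.72 and 1.37 after 18 h. Cdk1 was high on all A arrays, and within B the Irf4-/- arrays were above the Irf4+/- arrays in each condition. Ccnb1 had log2 levels of 1.87, 0.88 and 1.19 with mock, 2.08, 0.89 and 0.72 after 4 h of IL-4 and 2.01, 0.81 and 0.16 after 18 h on the Irf4-/- arrays of experiments A, B and C. Ccnb1 levels on the Irf4+/- arrays were 2.02, 0.54 and 1.03 with mock, 1.85, 0.72 and 0.77 after 4 h of IL-4 and 1.97, 0.29 and 0.39 after 18 h. Cyclin B1, the mitotic partner of CDK1, overlapped between all groups. Plk1 had log2 levels of 4.26, 3.55 and 3.71 with mock, 4.12, 3.23 and 3.18 after 4 h of IL-4 and 4.09, 3.27 and 2.67 after 18 h on the Irf4-/- arrays of experiments A, B and C. Plk1 levels on the Irf4+/- arrays were 4.41, 3.06 and 3.61 with mock, 4.18, 3.01 and 2.85 after 4 h of IL-4 and 4.33, 2.74 and 2.88 after 18 h. This polo-like kinase, needed for centrosome maturation and spindle assembly, followed the mean of the 42 genes more closely than any other member. The remaining genes of this role, the cyclins Ccna2 and Ccnb2, the CDK1-activating phosphatase Cdc25c, the transcription factor Foxm1, the kinases Aurka and Nek2 and the spindle factor Tpx2, had 63.5% to 86.8% of their sum of squares between experiments.

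The spindle checkpoint delays anaphase until chromosomes are attached. Bub1b had log2 levels of 1.79, 1.02 and 0.99 with mock, 1.52, 0.59 and 0.37 after 4 h of IL-4 and 1.69, 0.53 and -0.03 after 18 h on the Irf4-/- arrays of experiments A, B and C. Bub1b levels on the Irf4+/- arrays were 1.80, 0.95 and 1.06 with mock, 1.29, 0.21 and 0.28 after 4 h of IL-4 and 1.64, 0.13 and 0.35 after 18 h. Within each experiment and genotype, Bub1b, the checkpoint kinase BUBR1, was lower at both IL-4 times than with mock. The other checkpoint genes, Bub1, Mad2l1 and Ttk, took 61.8% to 82.6% of their sum of squares from the experiment. At the metaphase to anaphase step, Cdc20 activates the anaphase-promoting complex and Ube2c supplies it with ubiquitin, while Pttg1 (securin) holds back the protease Espl1 (separase). Espl1 had log2 levels of 0.93, 0.52 and 0.61 with mock, 0.42, 0.01 and -0.03 after 4 h of IL-4 and 0.73, 0.03 and -0.20 after 18 h on the Irf4-/- arrays of experiments A, B and C. Espl1 levels on the Irf4+/- arrays were 0.89, 0.40 and 0.84 with mock, 0.09, -0.27 and 0.15 after 4 h of IL-4 and 0.66, -0.22 and 0.07 after 18 h. With 4 h of IL-4 the Espl1 arrays lay below the mock arrays of the same genotype with no overlap in both genotypes. Pttg1 had log2 levels of 3.98, 3.82 and 3.52 with mock, 3.75, 3.64 and 3.67 after 4 h of IL-4 and 3.04, 3.47 and 3.41 after 18 h on the Irf4-/- arrays of experiments A, B and C. Pttg1 levels on the Irf4+/- arrays were 3.88, 3.80 and 3.63 with mock, 3.73, 3.86 and 3.33 after 4 h of IL-4 and 3.11, 3.43 and 3.03 after 18 h. All 18 h values of Pttg1 lay below all mock values of the same genotype, and the A arrays did not stand above the others.

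The chromosomal passenger complex joins the kinase Aurkb to Birc5 (survivin), Incenp and Cdca8 (borealin). Aurkb had log2 levels of 1.71, 0.86 and 1.07 with mock, 1.46, 0.70 and 1.07 after 4 h of IL-4 and 1.65, 1.22 and 0.97 after 18 h on the Irf4-/- arrays of experiments A, B and C. Aurkb levels on the Irf4+/- arrays were 1.56, 0.57 and 0.91 with mock, 1.62, 0.74 and 0.46 after 4 h of IL-4 and 1.89, 0.72 and 0.62 after 18 h. Aurkb overlapped between all groups and stood highest in A. Incenp, the scaffold of the complex, had mean levels of 5.6 in A, 5.49 in B and 5.31 in C, with A arrays that overlapped the others. Kinetochores are built on Cenpa, the histone H3 variant of centromeres, and bind microtubules through Ndc80, Nuf2, Spc24 and Spc25 and the kinesin Cenpe. Cenpe had log2 levels of 4.95, 4.78 and 4.88 with mock, 4.71, 4.08 and 4.19 after 4 h of IL-4 and 4.63, 4.53 and 3.63 after 18 h on the Irf4-/- arrays of experiments A, B and C. Cenpe levels on the Irf4+/- arrays were 4.87, 4.33 and 4.80 with mock, 4.53, 4.16 and 4.02 after 4 h of IL-4 and 4.62, 3.88 and 3.83 after 18 h. On the Irf4-/- arrays every mock value of Cenpe was above every IL-4 value, whereas the Irf4+/- groups overlapped. Ndc80 had log2 levels of 0.84, 0.51 and 0.37 with mock, -0.03, -0.03 and -0.77 after 4 h of IL-4 and 0.42, -0.04 and -0.66 after 18 h on the Irf4-/- arrays of experiments A, B and C. Ndc80 levels on the Irf4+/- arrays were 0.80, 0.00 and 0.32 with mock, 0.19, -0.55 and -0.75 after 4 h of IL-4 and 0.57, -0.37 and -0.28 after 18 h. Its 4 h values lay below all mock values on the Irf4-/- arrays. Ndc80 took 45.7% of its sum of squares from the groups, against 2.28% to 7.65% for its partners in the same complex, Nuf2, Spc24 and Spc25.

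Of the genes that bind chromosomes, Top2a untangles DNA as topoisomerase II alpha and Mki67 encodes the proliferation antigen Ki-67. Top2a had log2 levels of 1.68, 1.38 and 0.96 with mock, 1.35, 0.93 and 0.77 after 4 h of IL-4 and 1.37, 0.79 and 0.33 after 18 h on the Irf4-/- arrays of experiments A, B and C. Top2a levels on the Irf4+/- arrays were 1.59, 0.93 and 1.20 with mock, 1.19, 0.42 and 0.71 after 4 h of IL-4 and 1.53, 0.46 and 0.60 after 18 h. Mki67 had log2 levels of 5.75, 5.18 and 5.21 with mock, 5.33, 4.68 and 4.50 after 4 h of IL-4 and 5.52, 4.76 and 3.91 after 18 h on the Irf4-/- arrays of experiments A, B and C. Mki67 levels on the Irf4+/- arrays were 5.28, 4.75 and 5.24 with mock, 5.01, 4.60 and 4.56 after 4 h of IL-4 and 5.22, 4.31 and 4.25 after 18 h. Both were lower with IL-4 than with mock in every experiment and genotype, with groups that overlapped. Anln (anillin) anchors the cleavage furrow, and with Prc1, Ect2 and Racgap1 forms the cytokinesis group. Anln had log2 levels of 0.25, -0.37 and -0.41 with mock, -0.37, -0.83 and -1.44 after 4 h of IL-4 and 0.01, -0.55 and -1.46 after 18 h on the Irf4-/- arrays of experiments A, B and C. Anln levels on the Irf4+/- arrays were 0.04, -0.62 and -0.53 with mock, -0.53, -1.45 and -1.53 after 4 h of IL-4 and -0.12, -0.996 and -0.94 after 18 h. Within each experiment Anln was lower at both IL-4 times than with mock.

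The 4 h IL-4 arrays were compared with mock in each genotype. Mock cells had been cultured for 18 h, so that IL-4 and time in culture cannot be told apart at 4 h. In experiment C the Irf4-/- 4 h and mock arrays also lay on different slides, and slide and treatment cannot be told apart there. Irf4-/- cells had 39 of the 42 genes lower with IL-4 and 3 higher, with a median log2 difference of -0.34 against 0.08 over all genes. In experiments A, B and C the medians were -0.22, -0.31 and -0.48, and 31 genes (73.8%) were lower in all 3 experiments, against 26.3% of all genes. Irf4+/- cells also had 39 lower, with a median of -0.34 against -0.02 over all genes, experiment medians of -0.21, -0.18 and -0.58, and 33 genes (78.6%) lower in all 3, against 31.5%. The limma fit of 6 group means called 0 of the 42 at an adjusted p under 0.05 in either genotype, and 1 gene in each had an unadjusted p under 0.05. Shares of all genes at an unadjusted p are not given, here or below, so counts under that rule have nothing to be set against. At the adjusted threshold, the fit of group means called 1.67% of all genes as lower on the Irf4-/- arrays and 1.95% on the Irf4+/- arrays. Its standard errors (median 0.48 over the 42 genes) hold the spread between experiments. With the experiment as a block, which is how the samples are paired, the median standard error was 0.20.

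With that block, 3 of the 42 genes fell at 4 h on the Irf4-/- arrays (7.14%, against 8.03% of all genes) and 5 on the Irf4+/- arrays (11.9%, against 8.27%). The first share is near that of all genes, and the calls are therefore read gene by gene. Ndc80 fell on the Irf4-/- arrays by 0.87, 0.54 and 1.13 in experiments A, B and C, a log2 difference of -0.85 (SE 0.19, limma adjusted p = 0.00724 with the block and 0.279 without). Its difference was -0.74 on the Irf4+/- arrays (adjusted p = 0.0153 with the block and 0.378 without). Anln fell by a log2 difference of -0.70 on the Irf4-/- arrays (SE 0.18, limma adjusted p = 0.0161 with the block, 0.513 without) and of -0.80 on the Irf4+/- arrays (adjusted p = 0.00771 with the block, 0.429 without). Espl1, the separase, changed by -0.51, -0.51 and -0.64 on the Irf4-/- arrays and by -0.81, -0.67 and -0.69 on the Irf4+/- arrays. Its limma adjusted p was 0.0327 and 0.0079 with the block, and 0.399 and 0.199 without. Bub1b (-0.68, adjusted p = 0.0159 with the block) and the microtubule-depolymerising kinesin Kif2c (-0.56, adjusted p = 0.0362) passed on the Irf4+/- arrays, where the limma values without the block were 0.702 and 0.595. The highest difference belonged to Spc25, at 0.14 on the Irf4-/- arrays and 0.33 on the Irf4+/- arrays, neither of which passed. Groups that did not overlap were found for 4 genes on the Irf4-/- arrays (Espl1, Incenp, Cenpe and Ndc80, against 9.9% of all genes) and for Espl1 on the Irf4+/- arrays (against 8.11%).

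By role, the cytokinesis genes had the lowest medians at 4 h, -0.51 on the Irf4-/- arrays and -0.48 on the Irf4+/- arrays, with all 4 lower in every experiment and genotype. The spindle checkpoint genes had medians of -0.40 and -0.43, again with all 4 lower in every experiment. The 6 kinesins (Kif11, Kif20a, Kif23, Kif2c, Kif4 and Kif22) had medians of -0.40 and -0.35, and all were lower in all 3 experiments of both genotypes. The 10 genes of mitotic entry had medians of -0.33 and -0.35, and Top2a, Mki67 and Nusap1 of -0.38 and -0.37. The chromosomal passenger genes had medians of -0.15 and -0.14, the anaphase group -0.12 and -0.22, and the kinetochore genes -0.27 and -0.23. At 18 h the medians were -0.13 and -0.07 for the chromosomal passenger genes, -0.46 and -0.45 for the anaphase group and -0.50 and -0.24 for the kinetochore genes. The 18 h medians of the other roles are not given here, and the order of the roles at 4 h need not hold at 18 h. The roles hold 3 to 10 genes each, and the differences between roles were not tested.

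At 18 h of IL-4 most of the 42 genes were again lower than on the mock arrays, which both times share. Irf4-/- cells had 40 of the 42 genes lower, with a median log2 difference of -0.41 against 0.12 over all genes, and on the Irf4+/- arrays 39 were lower, with a median of -0.32 against 0.02. The size differed between experiments. In Irf4-/- cells the medians were -0.07 in A, -0.17 in B and -0.87 in C, with 28, 34 and 42 genes lower. In Irf4+/- cells they were -0.05, -0.36 and -0.60, with 22, 38 and 42 genes lower. Lower in all 3 experiments were 25 genes on the Irf4-/- arrays (59.5%, against 20.4% of all genes) and 22 on the Irf4+/- arrays (52.4%, against 26.3%). In experiment C the 18 h and mock arrays of each genotype lay on different slides, whereas in A and B they shared one, so slide and treatment cannot be told apart in C.

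The limma fit without the block called 0 of the 42 at 18 h in either genotype (1.41% of all genes as lower on the Irf4-/- arrays and 2.02% on the Irf4+/- arrays), with 1 unadjusted p under 0.05 in each. With the block, 8 genes fell on the Irf4-/- arrays (19.0%, against 6.65% of all genes), and 3 on the Irf4+/- arrays (7.14%, against 7.8%, a share near that of all genes). Ndc80 had the smallest limma adjusted p on the Irf4-/- arrays, with a log2 difference of -0.67 (SE 0.19, adjusted p = 0.0272 with the block and 0.461 without). The kinetochore protein Cenpf had the lowest difference, -0.69, made of -0.48, -0.21 and -1.37 in A, B and C (adjusted p = 0.0396 with the block and 0.586 without). Cdc25c (-0.64, adjusted p = 0.0454 with the block), Top2a (-0.51, 0.0469) and the bipolar spindle kinesin Kif11 (-0.59, 0.0475) also passed, and had limma adjusted p-values of 0.695, 0.6 and 0.679 without the block. Bub1b, Pttg1 and Espl1 completed the 8, with limma adjusted p-values of 0.0484, 0.0493 and 0.04998 with the block, the last just under the threshold.

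Pttg1 (securin) was the gene whose 18 h arrays separated in both genotypes. Its log2 difference was -0.46 on the Irf4-/- arrays, made of -0.94, -0.34 and -0.11 in A, B and C (limma adjusted p = 0.0493 with the block and 0.274 without). It was -0.58 on the Irf4+/- arrays, made of -0.76, -0.37 and -0.60 (adjusted p = 0.0187 with the block and 0.123 without). Cenpe was the other gene whose 18 h and mock arrays did not overlap on the Irf4-/- side (difference -0.61, limma adjusted p = 0.0555 with the block). Such separation was seen for 7.8% of all genes on the Irf4-/- arrays and 7.32% on the Irf4+/- arrays, above the share among the 42. Bub1b and Espl1 were the other genes that passed with the block on the Irf4+/- arrays, at -0.56 and -0.55 (limma adjusted p = 0.044 and 0.0388, and 0.909 and 0.463 without). The highest differences belonged to Cenpa, 0.16 on the Irf4-/- arrays and 0.22 on the Irf4+/- arrays, neither of which passed. Over both genotypes and times, 10 of the 42 genes passed with the block at least once, and Espl1 passed in all 4 comparisons, at 18 h on the Irf4-/- arrays only just (0.04998). The share of all genes that passed at least once, or in all 4, was not counted, so these counts have nothing to be set against. When 1 experiment was left out of the blocked fit, at most 2 genes passed in any of these comparisons, in fits that hold fewer arrays and called 5.98% to 12.3% of all genes in either direction. Without the 18 h array of experiment C, the median on the Irf4-/- arrays was -0.06 at 18 h, against -0.41 with it. With the block and median scaling, 2 and 1 genes passed at 4 h and 18 h on the Irf4-/- arrays (against 13.3% and 12.7% of all genes in either direction), and 2 and 0 on the Irf4+/- arrays (against 14.2% and 11.9%). With the block and normexp background the counts were 0 and 0 (against 4.83% and 2.7%), and 0 and 4 (against 4.49% and 5.15%). With the pool of cells (experiment and genotype) as a random block, 9 and 14 genes were lower at 4 h and 18 h on the Irf4-/- arrays (against 14.8% and 11.9% of all genes), and 9 and 7 on the Irf4+/- arrays (against 14.9% and 13.1%). With the slide as that block the counts, here in either direction, were 3 and 6 on the Irf4-/- arrays and 9 and 2 on the Irf4+/- arrays. The shares of all genes called lower in that fit were 11.6% and 9.44%, and 15.9% and 11.6%. Those shares hold 1 direction only and are not a like measure.

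**Figure D3:**
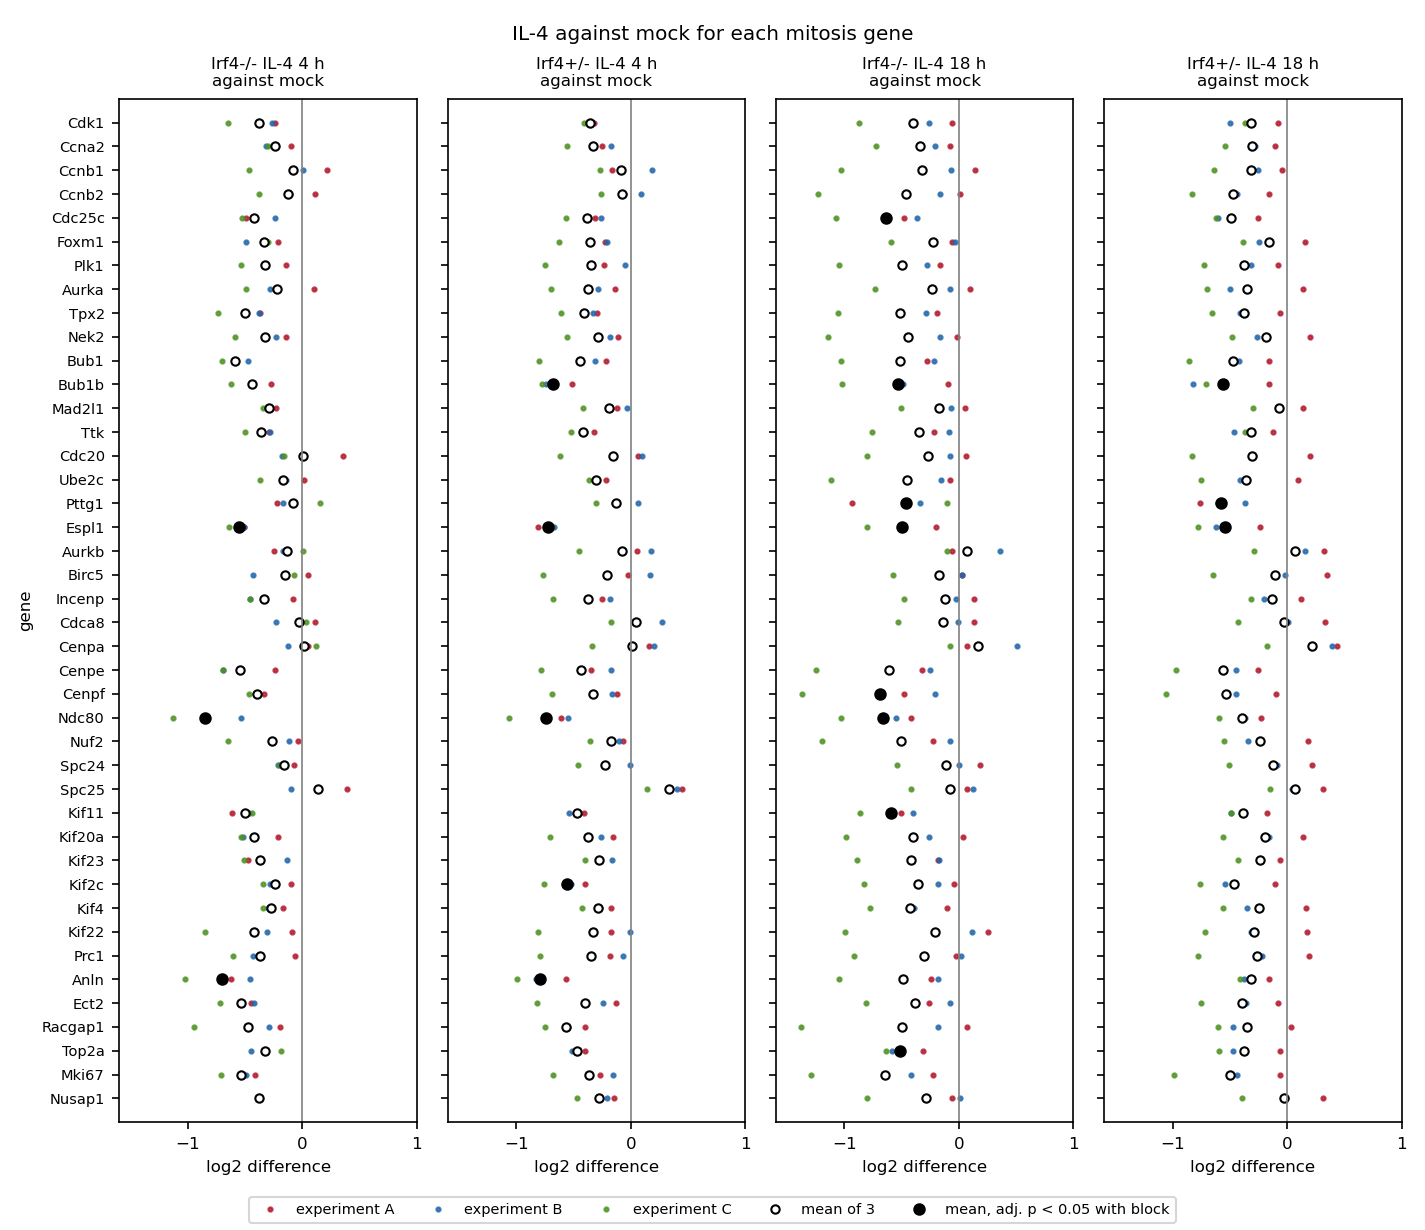
Log2 difference of IL-4 against mock for each of the 42 genes, with the Irf4-/- panel left of the Irf4+/- panel at each time. Coloured points are experiments A, B and C, open circles their mean, and filled circles means with a limma adjusted p under 0.05 with the experiment as a block. At 18 h the points of experiment C lie lowest for most genes.

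Between the IL-4 times, 18 h against 4 h, the median log2 difference was -0.03 on the Irf4-/- arrays, with experiment medians of 0.09, 0.11 and -0.42, and 0.04 on the Irf4+/- arrays, with 0.27, -0.09 and -0.005. The limma fit called 0 of the 42 with or without the block in either genotype, against 0.568% of all genes on the Irf4-/- arrays and 1.15% on the Irf4+/- arrays without it, and 8.48% and 11.5% with it. The pool as a random block called 1 and 2 of the 42 (against 20.8% and 23.1%), and the slide 1 and 1 (against 22.4% and 19%). At an unadjusted p under 0.05 without the block, 0 passed on the Irf4-/- arrays and 1, Pttg1, on the Irf4+/- arrays. Pttg1 had the lowest difference in both genotypes, -0.38 (limma adjusted p = 0.147 with the block) on the Irf4-/- arrays and -0.45 (adjusted p = 0.0738) on the Irf4+/- arrays, and was lower in all 3 experiments of each. Its groups did not overlap on the Irf4-/- arrays, as for 5.08% of all genes. The 44 genes of DNA replication, fixed as a neighbouring list, had medians of 0.34 and 0.30 in these comparisons, with 43 and 38 genes higher at 18 h than at 4 h. With the block, 2 of the 44 passed on the Irf4-/- arrays and 1 on the Irf4+/- arrays, all higher.

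**Figure D4:**
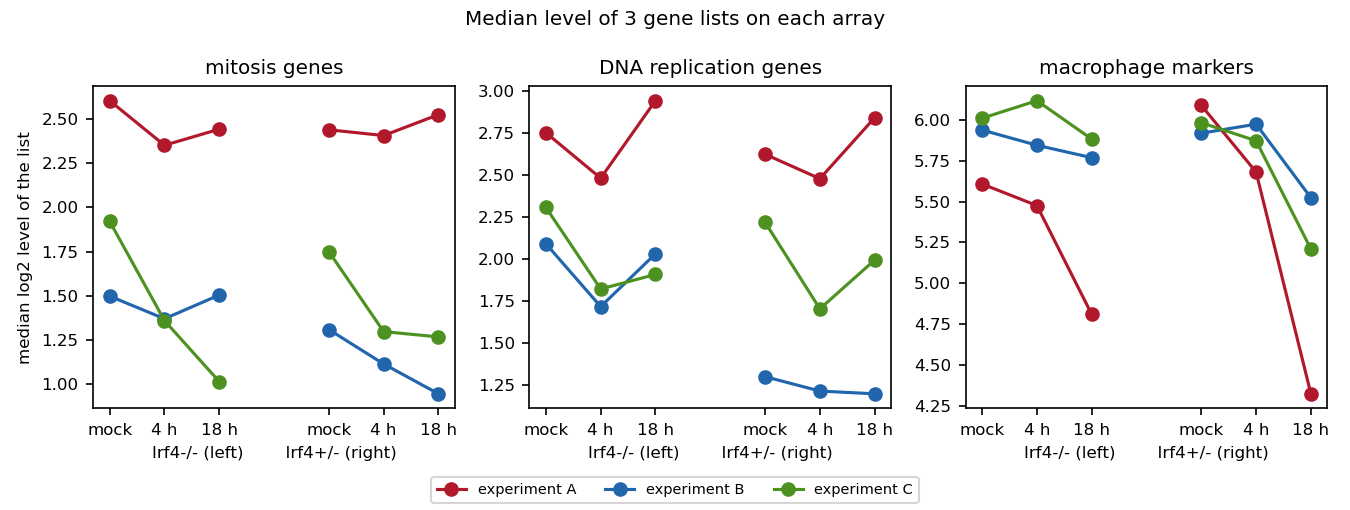
Median log2 level on each array for the 42 mitosis genes, 44 DNA replication genes and 8 macrophage markers, by condition, with Irf4-/- left of Irf4+/- in each panel and 1 line per experiment. Experiment A is highest for the first and second lists, and the replication genes stand higher at 18 h than at 4 h of IL-4 in all lines but that of Irf4+/- experiment B.

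Loss of Irf4 was compared with the heterozygous state within each condition. With mock, 34 of the 42 genes were higher on the Irf4-/- arrays, with a median log2 difference of 0.13 (-0.03, 0.37 and 0.08 in experiments A, B and C), against -0.07 over all genes. At 4 h of IL-4, 38 were higher with a median of 0.12 (0.01, 0.25 and 0.16), against -0.01. At 18 h, 26 were higher with a median of 0.03 (-0.16, 0.50 and -0.22), against 0.02. Experiment B thus held most of the difference, and at 18 h all 42 genes were higher on its Irf4-/- array while 28 and 33 were lower in A and C. The limma fit called 0 of the 42 in any condition, with or without the block, and 0 had an unadjusted p under 0.05 without it. The smallest adjusted p with the block was 0.322 with mock, 0.723 at 4 h and 0.399 at 18 h. Over all genes, 0.0323%, 0.0258% and 0.413% were called with the block, and 0%, 0% and 0.0258% without. The 95% intervals of the fit without the block reached from -1.56 to 1.58 over the 42 genes and the 3 conditions, which does not show equal levels. In every experiment and condition the Irf4-/- and Irf4+/- arrays lay on different slides, and genotype and slide cannot be told apart.

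The difference between genotypes in the response to IL-4 was tested as an interaction. Its median over the 42 genes was -0.02 at 4 h (0.03, -0.18 and 0.09 in A, B and C) and -0.08 at 18 h (-0.13, 0.18 and -0.28). The limma fit called 0 genes at either time, with or without the block, among the 42 and among all genes, and 0 of the 42 had an unadjusted p under 0.05. The genes that passed with the block in 1 genotype only, such as Kif2c at 4 h and Cenpf, Cdc25c, Kif11 and Top2a at 18 h, were therefore not shown to respond differently. Kif2c had an interaction of 0.32 at 4 h (SE 0.24 with the block), and Cenpf -0.15 at 18 h (SE 0.30).

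A wider list of mitosis genes, 75 tested of 82 listed, was set beside the 42. Against mock, 70 of the 75 were lower at 4 h on the Irf4-/- arrays (median -0.39) and 64 on the Irf4+/- arrays (median -0.37). At 18 h, 71 and 63 were lower (medians -0.33 and -0.22). The limma fit without the block called 1 of the 75 at 4 h on the Irf4-/- arrays and 2 on the Irf4+/- arrays, and 0 and 1 at 18 h. These counts hold both directions, and the share of all genes called in either direction is not given for them. Psrc1, a spindle-associated protein, was higher in all 4 comparisons against mock and passed without the block in 3. It rose by 0.79 at 4 h on the Irf4-/- arrays (limma adjusted p = 0.0411). On the Irf4+/- arrays it rose by 0.96 and 0.80 at 4 h and 18 h (adjusted p = 0.0126 and 0.0377). At 18 h on the Irf4-/- arrays the difference was 0.56 (limma adjusted p = 0.195 without the block and 0.0463 with it). Ncapg2, a condensin II subunit, fell at 4 h on the Irf4+/- arrays by a log2 difference of -1.47 (limma adjusted p = 0.0271), against -1.23 (0.0757) on the Irf4-/- arrays. With the block, 16 fell at 4 h on the Irf4-/- arrays (21.3%, against 8.03% of all genes) and 11 on the Irf4+/- arrays (14.7%, against 8.27%), and 1 rose in each. At 18 h, 6 fell on the Irf4-/- arrays (8%, against 6.65%) and 3 on the Irf4+/- arrays (4%, against 7.8%), shares near or below those of all genes, and 2 rose in each. Shares of all genes called higher against mock are not given here. The rises in this list and among the replication genes are therefore read gene by gene, not as a trait of the lists. Lin9, a MuvB subunit, was among those that fell at 4 h in both genotypes (-0.79 and -0.62, limma adjusted p = 0.00224 and 0.0098 with the block). DNA replication genes were lower in 42 of 44 cases at 4 h on the Irf4-/- arrays (median -0.54) and in 39 on the Irf4+/- arrays (median -0.41), with 11 (25%, against 8.03% of all genes) and 3 (6.82%, against 8.27%) called lower with the block. At 18 h 33 and 29 were lower (medians -0.16 and -0.06). None of the 44 was called lower with the block at 18 h, and on the Irf4+/- arrays the replication factor C subunit Rfc5 (0.46, limma adjusted p = 0.0179 with the block) and the dUTPase Dut (0.79, 0.0193) rose.

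Other probes of the same genes gave the same direction in most cases. For 18 of the 42 genes, 23 further probes passed the filter, and all 92 of their IL-4 values against mock were below 0. In 6 of the 92 the kept probe had the opposite sign, in Cdca8 and Cenpa, so that the positive values of these genes rest on the kept probe alone. For Cenpe the other probes changed by -0.68 and -0.78 at 4 h on the Irf4-/- arrays, against -0.54 for the kept one.

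The summed macrophage markers ran from 8.62 to 9.43 with mock, 8.79 to 9.74 at 4 h and 8.65 to 9.65 at 18 h on the Irf4-/- arrays, and from 9.30 to 9.51, 9.14 to 9.56 and 8.92 to 9.31 on the Irf4+/- arrays. Progenitor sums ran from 0.49 to 3.13, 0.30 to 3.44 and 0.13 to 3.29 on the Irf4-/- arrays and from 0.29 to 2.45, 0.40 to 2.95 and -0.06 to 2.63 on the Irf4+/- arrays. These ranges overlapped between mock and IL-4 in both genotypes, the macrophage ranges of Irf4+/- mock and 18 h arrays only at their edges. Within each experiment the Irf4+/- macrophage sum was lower at 18 h (8.92, 9.31 and 9.05 in A, B and C) than with mock (9.30, 9.51 and 9.33). Summed B-lineage markers were lower at 18 h than with mock in all 3 experiments of both genotypes. They were 0.25, 0.57 and 0.54 at 18 h against 0.55, 0.92 and 1.01 with mock on the Irf4-/- arrays, and 1.02, 0.80 and 0.45 against 1.58, 1.31 and 1.10, with no overlap, on the Irf4+/- arrays, while the median log2 change of the 5 measured B-lineage genes was 0.36 and -0.20. The median log2 difference of the 8 macrophage markers against mock was -0.26 at 4 h and -0.11 at 18 h on the Irf4-/- arrays, and -0.29 at both times on the Irf4+/- arrays. The markers were not tested for a part in the mitosis values.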

How the data were processed

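Total RNA of 18 pooled macrophage cultures was labelled with Cy3 and hybridised to 1-colour Agilent arrays, 1 per sample, on 7 slides. Spot intensity was extracted with Agilent Feature Extraction 9.5.1, per the submitters' processing notes, and the processed intensity is background-subtracted and detrended, per the file headers. The deposited flags give spots well above background, saturated or outlying, per the file headers. The deposited table of the authors holds log2 values relative to the Irf4+/- mock array of the same experiment, which is listed at 0, so its zero is not that of the values used here. No source used here says how it was scaled, and it served as an alternative.

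From the intensities, control and outlier spots were left out, spots of a probe averaged, log2 taken and the 75th percentile of the array subtracted. Of 41174 probes, 27504 passed the background flag on every array of 1 or more groups, and the brightest kept probe stood for its gene (15496 genes). limma 3.58.1 in R 4.3.3 fitted 6 group means with eBayes, two-sided, and Benjamini-Hochberg adjustment over all genes. A call is an adjusted p under 0.05. The script was tested on simulated data with independent noise on each array and no experiment effect, unlike the real arrays. At a log2 change of 1, it called 26% of 50 changed genes without the block and 24% with it. Whether cultures were separate beyond the experiment letters is not stated.

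Samples of one letter come from the same experiment with littermates, per the labels, and their deviations from group means correlated at 0.434 to 0.876 over 15441 genes, with all 18 arrays closest to their own letter. The letter was therefore also used as a block, beside the unblocked fit. The pool of cells (letter and genotype) and the slide served as random blocks. Members and gene lists were chosen with earlier results of these data known. Values in all arrays were given for 8 genes fixed by role, and other genes were named by a fixed rule (called genes up to 5 per comparison and the highest and lowest difference). Espl1, Pttg1, Ndc80 and Anln were given in full, and Bub1b, Pttg1 and Espl1 at 18 h, Incenp and Cenpe were named, after their values were seen.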

Additional observations from a re-analysis of the deposited data

How the results depend on the processing

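Recomputed were 2980 differences, of the 8 genes fixed by role and of genes picked because they passed with the replicate block. Of these, 2856 kept their side of the threshold and 124 newly passed it. The main fit called none of them, so none could lose a call, and the block fit that picked genes is among the recomputations. Without a block 0 genes were called in each of the 11 comparisons, and the fits that model the experiment, the pool or the slide moved that count for IL-4 against mock. On the Irf4-/- arrays, 3 genes at 4 h and 8 at 18 h were called with the replicate block, 9 and 14 when the pool was a random block, and 3 and 6 when the slide was. On the Irf4+/- arrays the counts were 5 and 3 with the replicate block, 9 and 7 with the pool and 9 and 2 with the slide. The authors' deposited table gave 5 and 4 on the Irf4+/- arrays and 0 and 0 on the Irf4-/- arrays, but there the Irf4+/- mock arrays are at 0 by construction, so that this group has no spread and its counts are not those of a full test. For 18 h against 4 h the pool and the slide gave 1 and 1 on the Irf4-/- arrays and 2 and 1 on the Irf4+/- arrays. Chosen after seeing the data, the replicate block with median scaling gave 2 and 1 at 4 h and 18 h on the Irf4-/- arrays and 2 and 0 on the Irf4+/- arrays. With the mean of a gene's probes it gave 6 and 9, and 9 and 3, and 1 for 18 h against 4 h on the Irf4+/- arrays. With normexp background it gave 0 and 0, and 0 and 4, and without the spots far below their local background 5 and 9, and 5 and 2. Leaving out 1 array unbalances the experiments, and the median change then ran from -0.705 to -0.0522 (Irf4+/- 4 h), -0.774 to 0.00519 (Irf4+/- 18 h, the upper end without the mock array of A), -0.631 to -0.131 (Irf4-/- 4 h) and -0.787 to -0.0561 (Irf4-/- 18 h, the upper end without the 18 h array of C). For 18 h against 4 h it ran from -0.403 to 0.295 on the Irf4-/- arrays and -0.393 to 0.39 on the Irf4+/- arrays. Between genotypes it ran from -0.112 to 0.412 with mock, -0.141 to 0.499 at 4 h and -0.315 to 0.511 at 18 h, and for the interactions from -0.314 to 0.346 and -0.462 to 0.36. With normexp background the median was -0.185 for 18 h against 4 h on the Irf4+/- arrays, 0.141 for the 4 h interaction and 0.289 for the 18 h interaction, and the cause was not tested. With 1 array or experiment left out, 0 to 2 genes were called at 4 h on the Irf4+/- arrays and 0 to 1 in the other IL-4 comparisons against mock. The share of all genes called differs between settings. It is not given here for the authors' table, the mean of a gene's probes, the fit without far-below spots or the fits without 1 array. Counts under those settings are therefore not ranked against the others.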
